A study of Homo sapiens with 12 samples.

Results

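The genes described here are the human zinc finger genes with a ZNF symbol that lie on an autosome other than chromosome 19. A member had to be protein-coding in GENCODE 29, on GRCh38, with a symbol made of ZNF, a number and at most 1 further letter. The rule used no measured value. It gave 250 members among the 63241 rows of the deposited gene table, of which 58228 were found in GENCODE 29 and 19855 were protein-coding. The same symbol rule gave 246 genes on chromosome 19, which serve as the closest comparison, and 12 on the X chromosome, which were left out. Members lay on 19 chromosomes. Chromosome 7 held 34, chromosome 16 held 31, chromosome 1 held 20, chromosome 3 held 19, chromosome 8 held 18 and chromosome 10 held 16.

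Most ZNF proteins carry runs of C2H2 zinc fingers, small zinc-bound folds that each contact a few bases of DNA, so that a run of fingers reads a longer sequence. Many of them begin with a KRAB domain, which recruits the co-repressor TRIM28, and TRIM28 gathers the histone H3 lysine 9 methyltransferase SETDB1, HP1 proteins and the NuRD complex. KRAB zinc finger proteins are best known for silencing transposable elements, and their genes arose largely by tandem duplication, which left them in clusters. Others carry a SCAN domain, which pairs zinc finger proteins with each other, or have few fingers and quite different roles.

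The cells were HCT116, an established line from a human colorectal carcinoma, and total RNA of 12 dishes treated on a single day was sequenced, 3 dishes for each of 4 groups. The control group was wild-type HCT116 given DMSO, with 8 h in the titles. The POLR1A-depleted group was a line whose POLR1A, the largest subunit of RNA polymerase I, carries an auxin-inducible degron (AID1), a tag that has the protein destroyed once a ligand is present. It received 1 µg/ml doxycycline 24 h ahead and then 500 µM indole-3-acetic acid (IAA), with 8 h in the titles. The POLR2A-depleted group was a line with an AID2 degron on POLR2A, the largest subunit of RNA polymerase II, given the modified auxin 5-Ph-IAA at 1 µM, again with 8 h in the titles. The actinomycin D group was wild-type HCT116 given 5 µg/mL actinomycin D, a drug that inserts into DNA and blocks transcription, for 6 h. According to the extraction protocol, cells were harvested at 6 h. Neither degron line has untreated libraries here, so cell line, inducer and ligand cannot be told apart from loss of the polymerase. The dishes are described as technical replicates, so p-values measure only the spread between dishes. RNA polymerase I makes the precursor of the large ribosomal RNAs, and RNA polymerase II makes messenger RNAs, those of the ZNF genes included.

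The promoters of 6 genes are shown first, because their genes carry the most divergent results below. Each is the stretch from 250 bases before to 50 bases after the RefSeq start (GRCh38.p14), read 5′ to 3′ on the strand of the gene. ZNF595 (chr4:53071-53370, plus strand) was close to 0 after POLR1A depletion, and ZNF678 (chr1:227563306-227563605, plus strand) was the member that fell furthest after POLR2A depletion by the rule for named members. ZNF425 (chr7:149126275-149126574, minus strand) rose furthest after POLR2A depletion by the same rule. ZNF608 (chr5:124748775-124749074, minus strand) moved in opposite directions with the 2 depletions. ZNF503 (chr10:75401867-75402166, minus strand) fell furthest with actinomycin D, and ZNF664 (chr12:123972965-123973264, plus strand) had the highest control level per kilobase. Capitals mark the GC box GGGCGG, the ETS-factor core CCGGAA, the CCAAT box, TATAAA, the E-box CACGTG and ACTACAA, a part of the ZNF143 site, each on either strand.
ZNF595: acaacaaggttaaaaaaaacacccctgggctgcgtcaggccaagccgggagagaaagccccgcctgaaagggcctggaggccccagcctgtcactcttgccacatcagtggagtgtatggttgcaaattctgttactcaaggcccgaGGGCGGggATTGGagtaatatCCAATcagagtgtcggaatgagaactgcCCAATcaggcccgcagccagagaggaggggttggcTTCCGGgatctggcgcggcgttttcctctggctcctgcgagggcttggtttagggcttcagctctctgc
ZNF678: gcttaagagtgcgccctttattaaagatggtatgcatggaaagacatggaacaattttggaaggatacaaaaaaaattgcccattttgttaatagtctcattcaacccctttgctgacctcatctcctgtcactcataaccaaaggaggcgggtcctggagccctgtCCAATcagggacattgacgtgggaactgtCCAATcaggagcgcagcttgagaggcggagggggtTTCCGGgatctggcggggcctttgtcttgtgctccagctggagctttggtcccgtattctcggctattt
ZNF425: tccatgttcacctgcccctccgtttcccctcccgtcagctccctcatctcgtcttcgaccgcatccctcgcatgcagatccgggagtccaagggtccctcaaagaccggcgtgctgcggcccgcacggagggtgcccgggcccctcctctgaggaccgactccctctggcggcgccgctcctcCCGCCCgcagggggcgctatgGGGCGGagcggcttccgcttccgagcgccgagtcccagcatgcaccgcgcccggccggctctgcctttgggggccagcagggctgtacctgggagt
ZNF608: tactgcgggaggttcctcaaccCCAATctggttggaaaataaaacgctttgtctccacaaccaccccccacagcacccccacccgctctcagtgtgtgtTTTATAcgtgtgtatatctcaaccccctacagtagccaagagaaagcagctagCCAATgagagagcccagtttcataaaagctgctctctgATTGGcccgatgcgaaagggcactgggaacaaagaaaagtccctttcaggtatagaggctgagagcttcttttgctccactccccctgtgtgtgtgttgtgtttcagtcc
ZNF503: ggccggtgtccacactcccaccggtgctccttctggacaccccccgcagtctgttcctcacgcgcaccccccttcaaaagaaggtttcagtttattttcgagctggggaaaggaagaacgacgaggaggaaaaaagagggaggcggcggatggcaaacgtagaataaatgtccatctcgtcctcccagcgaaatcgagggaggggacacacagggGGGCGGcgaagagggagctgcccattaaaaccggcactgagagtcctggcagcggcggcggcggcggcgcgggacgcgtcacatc
ZNF664: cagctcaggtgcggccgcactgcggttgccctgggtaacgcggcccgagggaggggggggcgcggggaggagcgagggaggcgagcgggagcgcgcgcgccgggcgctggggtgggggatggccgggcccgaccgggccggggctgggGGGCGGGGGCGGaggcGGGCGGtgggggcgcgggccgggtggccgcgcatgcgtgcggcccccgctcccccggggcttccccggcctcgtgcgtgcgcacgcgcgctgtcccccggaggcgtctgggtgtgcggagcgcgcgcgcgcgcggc

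The ZNF595 and ZNF678 promoters each hold the ETS core and CCAAT boxes, and they share the 15-base stretch TTCCGGGATCTGGCG around the ETS core, although the genes lie on different chromosomes. No other member promoter, no promoter of a chromosome 19 ZNF gene and no other of the 15842 protein-coding promoters in the RefSeq table held that stretch on either strand. It was noticed after the values of both genes were known. Promoters were found for 201 of the 250 members. CCGGAA on either strand was in 46.3% of member promoters, in 56.3% of 215 chromosome 19 ZNF promoters and in 22.9% of all protein-coding promoters of the same length. CCAAT was in 44.8%, 53.5% and 36.4%, GGGCGG in 60.2%, 67.9% and 58.5%, and TATAAA in 3.48%, 1.86% and 9.63%. ACTACAA was in 5.97%, 5.12% and 3.14%, and CACGTG in 6.47%, 4.19% and 8.88%. The median GC content was 62.7%, 59.7% and 62.7%. A match describes letters in the window and not a bound site. Matches of different motifs could overlap, and each promoter was counted once per motif.

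Library totals ran from 11289094 to 27393969 estimated counts. POLR1A mRNA was 230–249 CPM (counts scaled to a common library size with TMM, the trimmed mean of M values) in controls. It was 145–151 in POLR1A-depleted, 128–142 in POLR2A-depleted and 177–203 in actinomycin D libraries. POLR2A mRNA was 468–561 in controls, 908–945 in POLR1A-depleted, 1073–1110 in POLR2A-depleted and 558–620 in actinomycin D libraries. These values do not check the depletions, since the degrons act on protein. Of 12 epithelial and colorectal markers 11 reached a mean CPM of 1 in controls, and their summed CPM was 3689–4175 in controls, 2037–2191 in POLR1A-depleted, 2495–2704 in POLR2A-depleted and 3352–3648 in actinomycin D libraries. Blood markers summed to at most 10.2 CPM and fibroblast and neural markers to at most 25.4 each in any library. Endothelial markers summed to 0.584–0.839 CPM in controls and 10.0–13.9 with POLR2A depleted. The part of these shifts in the results on ZNF genes was not tested.

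Of the 250 members 222 passed the filter on low counts and were tested. The other 28 had a median of 9.5 and at most 62 counts summed over the 12 libraries, and 2 of them had none. Another 11 of the tested members did not reach a CPM of 0.5 in every control library, so these could pass only through other groups. In controls 209 members had a mean CPM of 1 or more and 152 had 10 or more. The median control level was 17.3 CPM over tested members and 20.7 over tested protein-coding genes. A KRAB motif was found in the translated coding sequences of 113 members, 91 of them tested, and a SCAN motif in 16. Both were searched with strict patterns that can miss members, so a member with no match may still carry the domain. The median member had 9 C2H2 matches and the highest had 34, while 22 members had 0 or 1. At least 10% of 75-base exon stretches were shared with another gene in 26 members, which makes the division of reads between them uncertain. Over 10% of exon bases lay under another gene on the same strand in 18 members and under an antisense gene in 37. The strand setting of the counting is not given in the sources used here, so such members are uncertain too.

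No KRAB motif was found in the most abundant members per kilobase of exon. ZNF664 stood at 39.9 CPM per kb in controls, ZNF770 at 34.1 and ZNF593, a homologue of a yeast factor for the large ribosomal subunit, at 33.7. ZNF207, a spindle protein that binds BUB3, stood at 19.5 CPM per kb, ZNF24, known as a SCAN protein although the motif search missed it, at 19.2, and ZNF638, a factor in the silencing of unintegrated retroviral DNA, at 17.1. ZNF644, a partner of the methyltransferases EHMT1 and EHMT2, stood at 16.4 CPM per kb and ZNF622, a homologue of a yeast factor for late large-subunit maturation, at 15.8. All exon bases of ZNF593 lie under an antisense gene, and 31.9% of those of ZNF770 do.

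The summed level of all 250 members was 0.675–0.728% of library counts in controls and 0.691–0.709% with POLR1A depleted, and these ranges overlap. It was 0.532–0.570% with POLR2A depleted and 0.389–0.414% with actinomycin D, both below every control library. Chromosome 19 ZNF genes together took 0.323% in controls, 0.273% and 0.272% after loss of POLR1A and POLR2A and 0.122% with actinomycin D (means of 3). In bulk RNA a share cannot tell a change in these mRNAs from a change in the rest, and fewer cells of a type cannot be told apart from less RNA per cell.

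**Figure D1:**
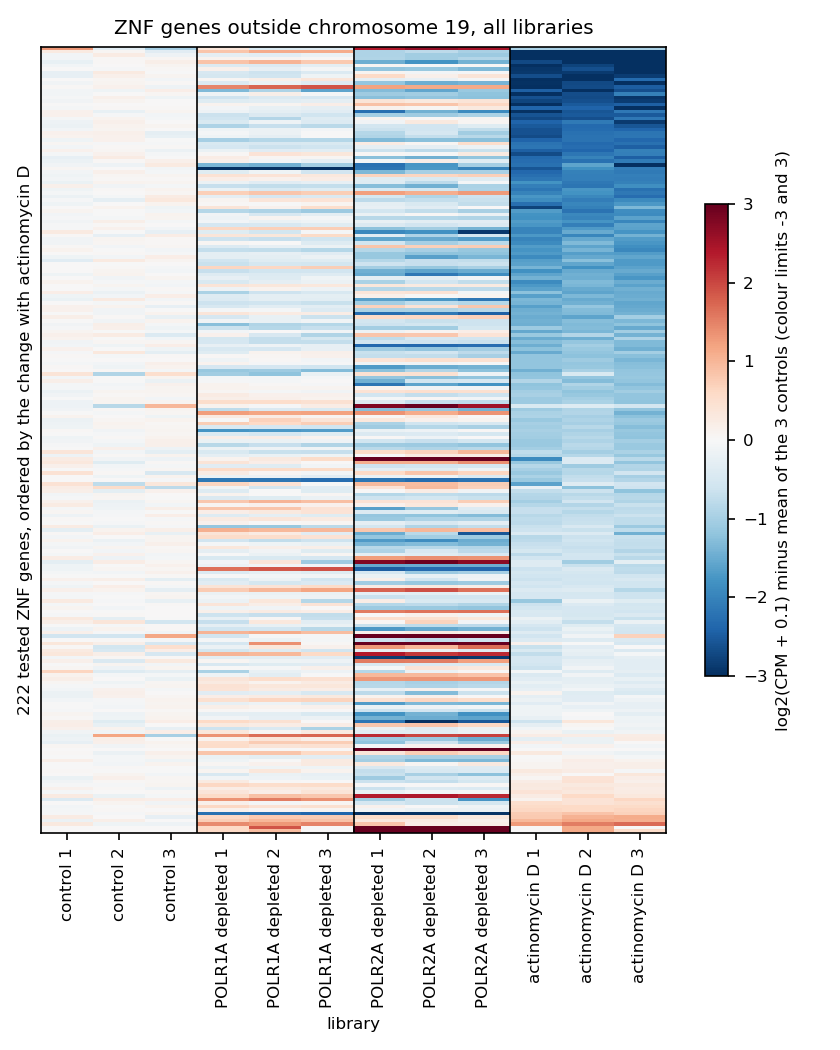
Heat map of the 222 tested members (rows, ordered by the change with actinomycin D) in all 12 libraries (columns). Colour is log2(CPM + 0.1) minus the mean of the 3 controls, cut at -3 and 3. Most rows are blue in the 3 actinomycin D columns and mixed in the POLR2A-depleted columns, where 129 members were called lower and 45 higher, while the POLR1A-depleted columns are paler. With scaling to mitochondrial mRNAs 56 members were called higher and 75 lower with actinomycin D.

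With POLR1A depleted, 45 members rose and 69 fell against controls. Among all 23593 genes tested 20.6% were called higher and 18.6% lower, so the share of members that rose (20.3%) was near the background and the share that fell (31.1%) lay above it. Among the 14924 protein-coding genes tested, the class all members belong to, 28.7% rose and 24.0% fell. The median log2 fold change was -0.13 over members, 0.05 over protein-coding genes and 0.01 over all genes tested. Of 177 tested ZNF genes on chromosome 19, 15 rose and 58 fell, with a median of -0.20. Scaling libraries to the mitochondrial mRNAs instead of TMM moved the median of all genes to 0.37 and reversed the direction of the members, with 73 called higher, 14 lower and a median of 0.23. Relative to the median of all genes the members lay at -0.14 under both scalings. A change of scaling shifts all genes nearly alike, so this likeness follows from the arithmetic and is no check of the result. By 2-fold or more, 10 of the 222 tested members rose and 9 fell, against 1165 and 1156 of all 23593 genes tested.

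ZNF608, a large protein with a single finger match, was at 6.95, 7.85 and 7.94 CPM in controls, 23.9, 28.0 and 28.7 with POLR1A depleted, 1.27, 1.42 and 1.41 with POLR2A depleted, and 4.85, 5.57 and 4.42 with actinomycin D. The 4 groups did not overlap. Its log2 fold change was 1.82 ± 0.12 (SE, adjusted p = 1.14e-10) with POLR1A depleted. ZNF703, a transcriptional co-repressor amplified in breast cancer, was at 6.79, 7.31 and 5.96 CPM in controls and 18.6, 22.6 and 25.0 with POLR1A depleted. It rose by 1.72 ± 0.13 on the log2 scale (adjusted p = 8.53e-10). Its paralogue ZNF503 rose from 58.2, 50.3 and 38.4 CPM to 86.6, 105 and 105, a log2 change of 1.02 ± 0.13 (adjusted p = 4.13e-05). Its exons lie by 11.6% under an antisense gene. ZNF467, known for a part in fat and bone cell fate, rose from 1.23–1.72 to 3.57–4.06 CPM (log2 fold change 1.46). ZNF654 rose from 21.9–23.7 to 51.5–54.6 CPM (1.22), ZNF641 from 11.8–14.1 to 24.2–27.3 (1.03) and ZNF774 from 2.10–2.81 to 4.36–5.85 (1.01). ZNF821 rose from 0.409–2.22 to 2.49–3.27 CPM (1.37), with a wide spread between controls and 37.4% of its exon bases under antisense genes.

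ZNF704 was at 84.6, 84.5 and 92.9 CPM in controls and at 18.4, 18.0 and 16.6 with POLR1A depleted. All 3 depleted libraries lay far below all controls, and the log2 fold change was -2.31 ± 0.07 (adjusted p = 2.90e-16). ZNF469, mutated in brittle cornea syndrome, fell from 39.5, 39.5 and 37.8 CPM to 8.66, 8.49 and 7.93, a log2 change of -2.22 ± 0.10 (adjusted p = 3.03e-13). ZNF367 fell from 48.1, 43.6 and 49.3 CPM to 13.7, 14.1 and 14.7, a log2 change of -1.73 ± 0.08 (adjusted p = 5.44e-13). With POLR2A depleted it stood at 40.7, 42.5 and 48.1 CPM, a range that overlaps the controls. The neighbours ZNF485 and ZNF239 on chromosome 10 fell by 1.31 and 1.28 on the log2 scale. ZNF695 fell by 1.17, ZNF783 by 1.04 and ZNF593 by 1.01. ZNF695 shares 19.5% and ZNF783 29.5% of exon bases with another gene on the same strand.

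ZNF595, a KRAB gene with 17 finger matches at the start of the short arm of chromosome 4, came close to disappearing in one group. It was at 5.54, 5.34 and 5.02 CPM in controls and at 0.0519, 0.0447 and 0.0461 with POLR1A depleted, which is 3 counts over the group against 246 in controls. The ratio was 0.00897, with a 95% interval of 0.00184 to 0.0265 that covers counting error only. It was 1.07, 1.54 and 1.24 CPM with POLR2A depleted and 0.809, 1.43 and 1.17 with actinomycin D, well below the controls but far above the POLR1A-depleted libraries. ZNF721, the last member of the same cluster, was at 63.9, 66.3 and 80.8 CPM in controls and 53.8, 57.5 and 57.0 with POLR1A depleted, a log2 change of -0.33 ± 0.08 (adjusted p = 0.00324), with 25.8% of its exon bases shared with a gene on the same strand. With mitochondrial scaling the ZNF721 difference was 0.04 (adjusted p = 0.885). ZNF141, also in that cluster, was at 0.759–1.26 CPM in controls and 0.507–1.14 with POLR1A depleted, and did not pass the test (adjusted p = 0.454). ZNF718 and ZNF732 were at 0.296 CPM or less in every library and were not tested. The POLR1A line has no untreated library here, so a level of ZNF595 that belongs to the line cannot be told apart from an effect of depletion.

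**Figure D2:**
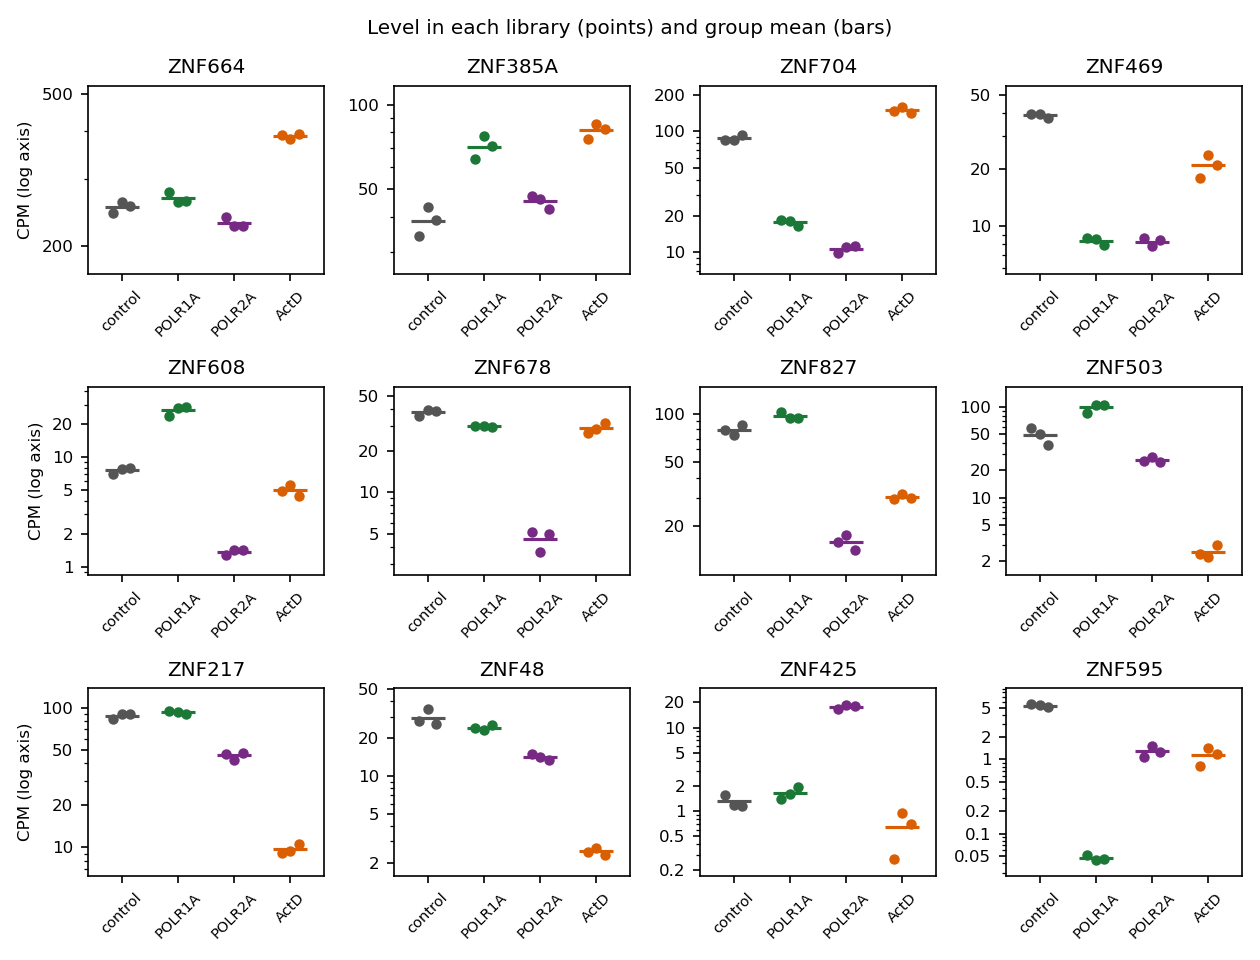
Level of 12 members in each library (points, CPM on a log axis) with the mean of 3 (bars), by group. ZNF595 is lowest with POLR1A depleted at 0.0447–0.0519 CPM, ZNF678 and ZNF608 with POLR2A depleted, and ZNF503, ZNF217 and ZNF48 with actinomycin D, while ZNF704 is low in both depletions and highest with actinomycin D.

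With POLR2A depleted, 129 members fell and 45 rose. Among all genes tested 28.2% were called lower and 33.2% higher, against 58.1% and 20.3% of members and 38.8% and 32.1% of protein-coding genes. The median log2 fold change was -0.52 over members, -0.05 over protein-coding genes and 0.08 over all genes. Of the chromosome 19 ZNF genes 75 fell and 45 rose, with a median of -0.14. The direction of the members held under each scaling tried. Mitochondrial scaling gave a member median of -0.80, with 28 called higher and 136 lower. Relative to the median of all genes the members lay at -0.61 with TMM and at -0.60 with mitochondrial scaling. That likeness follows from a nearly uniform shift of all genes and is no check of the result. By 2-fold or more, 54 of the 222 tested members fell and 22 rose, against 2274 and 5181 of all 23593 genes tested.

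ZNF678 was at 35.4, 39.4 and 38.5 CPM in controls and at 5.16, 3.67 and 4.97 with POLR2A depleted, against 29.9–30.3 with POLR1A depleted and 26.8–31.5 with actinomycin D. The log2 fold change with POLR2A depleted was -3.05 ± 0.11 (adjusted p = 3.18e-15), and the other treated groups lay below the controls by 0.33 and 0.39 on the same scale. ZNF704 was at 9.92–11.4 CPM (log2 fold change -3.02 ± 0.08, adjusted p = 9.57e-18), and ZNF469 at 8.58, 7.82 and 8.37 (-2.24 ± 0.11, adjusted p = 1.90e-13). Both were thus low in each depletion. ZNF827, which recruits NuRD to telomeres in cells that lengthen them by recombination, fell from 79.0, 74.2 and 85.2 CPM to 16.1, 17.8 and 14.3 (-2.30 ± 0.08). With POLR1A depleted it was 93.3–102 CPM, above every control, a log2 change of 0.28 (adjusted p = 0.00208). ZNF608 fell by 2.47 ± 0.17 on the log2 scale (adjusted p = 7.85e-11), the opposite of its rise with POLR1A depleted. ZNF407 fell by 2.35, ZNF341, an activator of STAT3 transcription, by 2.17, and ZNF624 by 1.88. Antisense genes cover 10.5% of the exon bases of ZNF341.

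ZNF425, a KRAB gene with 20 finger matches, was at 1.56, 1.20 and 1.17 CPM in controls and at 16.6, 18.5 and 17.9 with POLR2A depleted. It was 1.40–1.94 CPM with POLR1A depleted, overlapping the controls, and 0.270–0.955 with actinomycin D. The log2 fold change with POLR2A depleted was 3.76 ± 0.25 (adjusted p = 4.13e-11). ZNF843 rose from 0.937, 1.38 and 1.23 CPM to 8.58, 9.60 and 8.13 (log2 fold change 2.87 ± 0.32, adjusted p = 8.71e-08). ZNF117, which shares its locus with the endogenous retrovirus gene ERV3-1, rose from 4.98–6.95 to 27.9–31.6 CPM (2.38 ± 0.14). ZNF774 rose by 1.83, ZNF596 by 1.63 and ZNF519 by 1.33, ZNF789 went from 4.92–8.24 to 15.9–19.8 CPM, and ZNF821 by 1.88 with the limits given above. Of the 75-base stretches of ZNF519 10.8% recur in another gene. A further 3 members had no count in any control library and were called higher with POLR2A depleted: ZNF705A had 145 counts there, ZNF501 had 89 and ZNF334 had 39. Against a floor of 3 counts over the control group these were at least 56.1-fold, 34.5-fold and 15.1-fold higher. None of them had more than 7 counts in another group, so they passed the filter on low counts only through the POLR2A-depleted group. A high level there was thus a condition of being tested, and their calls are among the members counted as higher above. They were singled out after their values were seen, and 42.0% of the 75-base stretches of ZNF705A recur in another gene.

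With actinomycin D, 168 members fell and 12 rose. Among all genes tested 28.5% were called lower and 24.9% higher, against 75.7% and 5.41% of members and 30.1% and 35.4% of protein-coding genes. The median log2 fold change was -1.03 over members, 0.06 over protein-coding genes and -0.06 over all genes. Chromosome 19 ZNF genes gave 150 lower and 3 higher of 177, with a median of -1.41. In all, 111 of the 222 tested members fell by 2-fold or more and 2 rose by as much, against 4008 and 916 of all 23593 genes tested. All genes of the mitochondrial genome together, not only its mRNAs, took 7.30% of counts in controls and 3.56% with actinomycin D. Scaling to the mitochondrial mRNAs moved the median of all genes to 0.82 and gave 56 members higher, 75 lower and a median of -0.10. Under that scaling 50.4% of all genes were higher and 8.74% lower. The members lay at -0.93 relative to the median of all genes, against -0.97 with TMM, a likeness that the nearly uniform shift again brings about. Beside these falls, the epithelial markers summed to 3352–3648 CPM against 3689–4175 in controls. KRT8 alone had a control mean of 1851 CPM, so the sum says little on single markers. On the log2 scale EPCAM and CDH1 rose by 0.49 and 0.47. KRT18 fell by 0.53, KRT19 by 0.77, CLDN4 by 1.19 and CDX2 by 2.87.

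ZNF503 had the steepest fall of the named members. It was at 58.2, 50.3 and 38.4 CPM in controls and at 2.43, 2.23 and 3.01 with actinomycin D, a log2 change of -4.26 ± 0.19 (adjusted p = 1.00e-09). Its paralogue ZNF703 fell from 5.96–7.31 to 0.755–1.13 CPM (-2.80 ± 0.18). Both members of this pair had risen with POLR1A depleted. ZNF217, an oncogene product that binds the CtBP and LSD1 co-repressors, fell from 82.7, 89.6 and 90.7 CPM to 9.11, 9.47 and 10.6 (-3.17 ± 0.07, adjusted p = 1.00e-18). With POLR1A depleted it was 90.3–94.6 CPM, and the difference from controls did not pass the test (log2 fold change 0.08, adjusted p = 0.350). ZNF48 fell from 27.5, 34.2 and 26.1 CPM to 2.48, 2.67 and 2.35 (-3.54 ± 0.13), with 10.2% of its exon bases under an antisense gene. ZNF804A, at a locus associated with schizophrenia, fell by 3.13 on the log2 scale, and 12.1% of its exon bases lie under an antisense gene. ZNF92 fell by 3.10, ZNF2 by 3.01, the ribosome factor ZNF622 by 3.00 and ZNF408, mutated in inherited retinal disease, by 2.98. ZNF92 was 35.4–38.5 CPM with POLR2A depleted against 34.5–39.0 in controls, ranges that overlap.

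No KRAB motif was found in the members that rose with actinomycin D. ZNF704 was at 147, 158 and 141 CPM, above every control (log2 fold change 0.77 ± 0.06, adjusted p = 5.20e-10), where both depletions had left it at 18.4 CPM or less. ZNF385A, a p53 cofactor that favours cell-cycle arrest, was at 34.0, 43.3 and 38.8 CPM in controls, 64.3, 77.4 and 71.2 with POLR1A depleted, 47.5, 46.0 and 42.5 with POLR2A depleted, and 75.9, 85.7 and 82.3 with actinomycin D. It rose by 1.07 ± 0.08 on the log2 scale with actinomycin D (adjusted p = 1.04e-09) and by 0.87 with POLR1A depleted. ZNF467 rose to 3.50–4.70 CPM (1.57). ZNF219, a partner of SOX9, rose by 1.00, with 22.0% of its exon bases under antisense genes. ZNF664, the most abundant member per kilobase of exon, rose from 244, 261 and 255 CPM to 389, 381 and 393 (0.61 ± 0.05, adjusted p = 3.93e-10). ZNF512 rose by 0.59, with 31.6% of its exon bases shared with a gene on the same strand, ZNF618, a partner of UHRF2, by 0.46 and ZNF385B by 0.33. The ZNF385B difference was 0.21 and did not pass the test with library totals alone (edgeR adjusted p = 0.121).

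**Figure D3:**
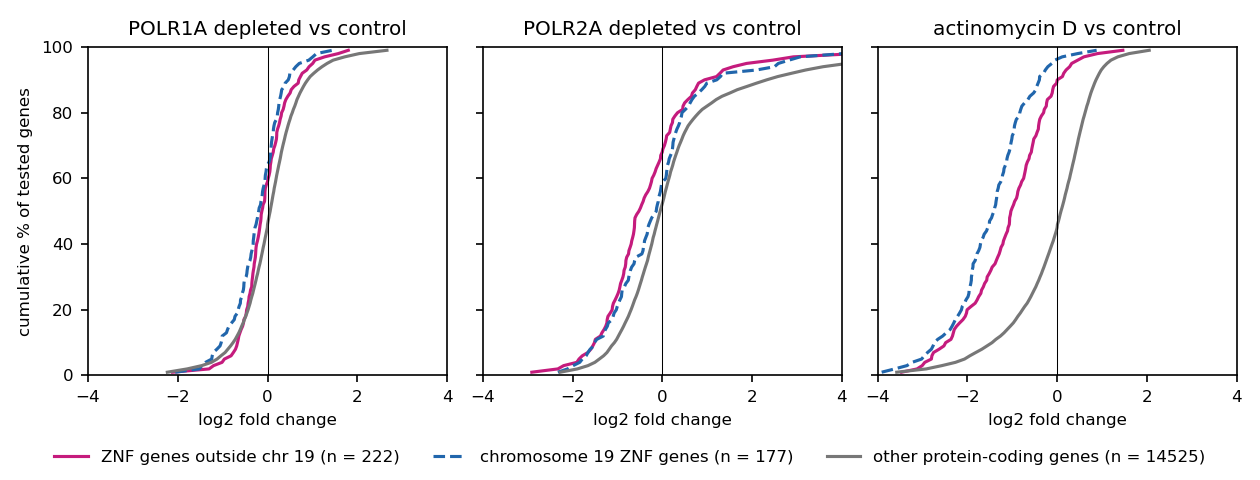
Cumulative percentage of tested genes (vertical axis) by log2 fold change (horizontal axis) against controls, for members (n = 222), chromosome 19 ZNF genes (n = 177) and other protein-coding genes (n = 14525). The member medians are -0.13, -0.52 and -1.03, and the member curve is furthest left of the other protein-coding genes with actinomycin D, while with POLR1A depleted the curves cross in the lower tail. With mitochondrial scaling the 3 member medians are 0.23, -0.80 and -0.10.

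Between treatments, with TMM, 120 members were higher and 50 lower with POLR1A depleted than with POLR2A depleted, where 29.1% of all genes were higher and 33.2% lower. The median was 0.33, against 0.09 over protein-coding genes, and mitochondrial scaling gave 159 higher and 18 lower. ZNF608 differed most among the named members (log2 fold change 4.29 ± 0.16), followed by ZNF678 (2.73), ZNF827 (2.57) and ZNF804A (2.47). ZNF425 was lower by 3.41, ZNF843 by 3.07, ZNF519 by 1.80 and ZNF367 by 1.62 on this scale. With ZNF425 and ZNF843 the POLR1A-depleted libraries overlapped the controls, and with ZNF367 the POLR2A-depleted libraries did.

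Actinomycin D left 161 members lower and 12 higher than POLR1A depletion did (31.8% and 24.4% of all genes), with a median of -0.94. Mitochondrial scaling gave 101 lower and 36 higher. ZNF503 was lower by 5.28, ZNF703 by 4.52, ZNF804A by 4.01 and ZNF48 by 3.28. ZNF704 was higher by 3.08, ZNF469 by 1.34, ZNF367 by 0.69 and ZNF362 by 0.57. The ZNF362 difference lost its call without POLR1A-depleted replicate 3, at 0.44 (edgeR adjusted p = 0.0536). Against POLR2A depletion 137 members were lower and 49 higher with actinomycin D (39.8% and 31.1% of all genes), with a median of -0.68. This direction flipped under mitochondrial scaling, to 114 higher and 48 lower with a median of 0.52, while the median of all genes moved from -0.18 to 1.02. ZNF425 was lower by 4.71, ZNF703 by 3.98, ZNF597 by 3.52 and ZNF843 by 3.51. ZNF704 was higher by 3.79, ZNF678 by 2.67, ZNF608 by 1.85 and ZNF33B by 1.53. The comparisons of one treatment with another and with controls share libraries and are not independent.

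Members were then described by features that are not expression. Of all genes tested 28.5% fell and 24.9% rose with actinomycin D. The shares were 18.6% and 20.6% with POLR1A depleted, and 28.2% and 33.2% with POLR2A depleted. Of 91 tested members with a KRAB motif 75 fell and 0 rose with actinomycin D (median -1.14). Of 131 in which the pattern found none 93 fell and 12 rose (median -0.85). KRAB genes that the pattern missed would be among these 131. With POLR1A depleted 35 of the KRAB members fell and 11 rose, while 34 of the others fell and 34 rose. With POLR2A depleted the counts were 49 lower and 22 higher against 80 lower and 23 higher. Of 16 members with a SCAN motif 13 fell and 0 rose with actinomycin D. By number of C2H2 matches, the 74 members with the fewest gave 48 lower with actinomycin D (median -0.70), the middle 74 gave 55 (median -0.90) and the 74 with the most gave 65 (median -1.34). These differences between subgroups were not tested. With mitochondrial scaling fewer falls were called over all members, and the subgroups were not split under that scaling.

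Promoter letters gave a further split, to be read beside the shares of all genes tested. With actinomycin D 28.5% of these fell and 24.9% rose, and with POLR2A depleted 28.2% and 33.2%. Among 89 tested members with CCGGAA in the promoter, 78 fell and 0 rose with actinomycin D, with a median of -1.06. Among 92 without it 61 fell and 8 rose, with a median of -0.94. With POLR1A depleted 37 members with CCGGAA fell and 14 rose, against 20 and 21 without it. Those 20 and 21 are 21.7% and 22.8%, near the 18.6% and 20.6% of all genes tested. With POLR2A depleted 50 members with CCGGAA fell and 17 rose, against 59 and 12 without it. GGGCGG was in the promoters of 113 tested members, of which 82.3% fell with actinomycin D, against 67.6% of 68 without it, while the medians were close, at -1.04 and -1.02. After POLR1A depletion 33.6% and 27.9% of these fell, and with POLR2A depleted 61.9% and 57.4%. For CCAAT the shares that fell with and without it were 79.7% and 74.5% with actinomycin D, 32.9% and 30.4% with POLR1A depleted, and 51.9% and 66.7% with POLR2A depleted. Each of the other 3 motifs was in at most 13 promoters of tested members. Members with a KRAB motif and members with CCGGAA are partly the same genes, and none of these splits was tested.

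The longest members fell most often with POLR2A depleted. Of the 74 members that span 1003 to 17537 bp 35 fell and 20 rose, and of the 74 that span 40420 to 467802 bp 49 fell and 6 rose. Of 24 members longer than 96733 bp 21 fell and 0 rose, which is 87.5%. Over 5 length classes from shortest to longest, members had 54.8%, 48.6%, 62.3%, 55.0% and 87.5% lower, so only the longest class stood apart. Other protein-coding genes went up steadily over these classes, from 30.2% lower among the shortest to 47.5% among those longer than 96733 bp. ZNF407, ZNF704, ZNF678, ZNF827 and ZNF608 are longer than 96733 bp. The part of level or other features in this was not tested. With actinomycin D the ends of the range lay the other way: 60 of the 74 shortest members fell (median -1.26) and 49 of the 74 longest did (median -0.69). Over the 5 length classes the members had 74.2%, 86.5%, 73.6%, 67.5% and 62.5% lower. Other protein-coding genes had 32.6%, 29.1%, 29.9%, 27.8% and 27.5%, so neither series went down steadily.

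Members were also set beside other protein-coding genes of like level, in 5 level classes by the mean CPM of all 12 libraries. In the class from 2.23 to 12.3 CPM, which held 75 members, 82.7% of members and 32.1% of other protein-coding genes fell with actinomycin D. In the class from 12.3 to 31.4 CPM, with 66 members, the shares were 81.8% and 39.1%. In the next class, with 43 members, they were 76.7% and 37.0%, and in the highest, with 15 members, 86.7% and 24.4%. With POLR2A depleted the shares in these 4 classes were 52.0% against 30.2%, 63.6% against 49.6%, 65.1% against 56.2% and 93.3% against 51.5%. With POLR1A depleted they were 25.3% against 19.7%, 47.0% against 29.5%, 34.9% against 30.5% and 20.0% against 33.6%. In the lowest class, with 23 members, 26.1% of members and 14.2% of other genes fell with actinomycin D, 26.1% and 4.93% with POLR2A depleted, and 4.35% and 6.19% with POLR1A depleted. The highest and lowest classes hold few members, these shares were not tested against each other, and with mitochondrial scaling falls were fewer with actinomycin D and POLR1A depleted.

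**Figure D4:**
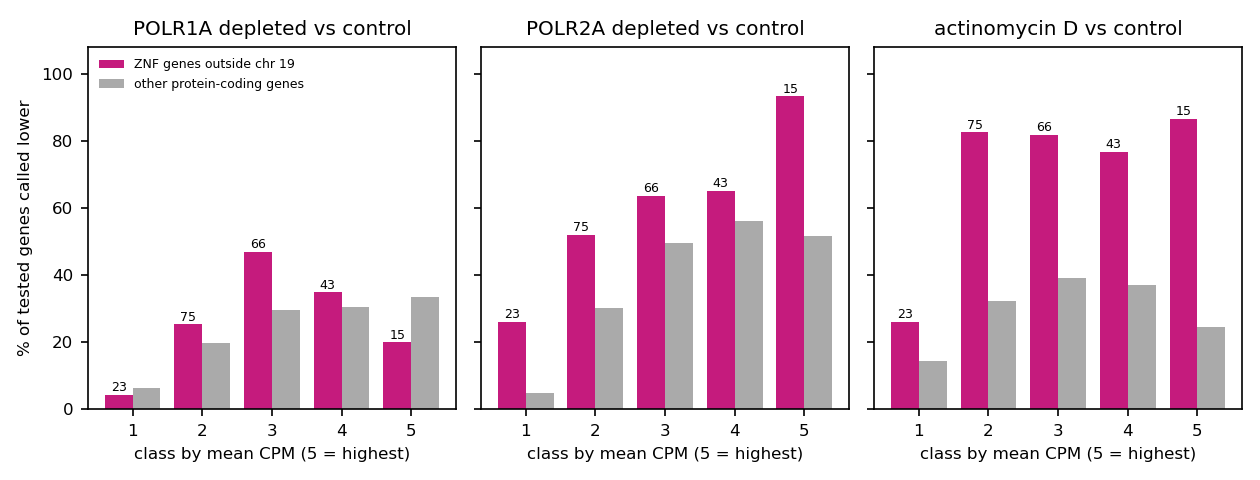
Percentage of tested genes called lower (bars from 0, TMM scaling) in 5 classes of mean CPM over all 12 libraries, for members and other protein-coding genes, with the number of members above each bar. With actinomycin D the member bars reach 76.7–86.7% in the upper 4 classes, where the other genes reach 24.4–39.1%.

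Genomic clusters were taken as runs of at least 4 members with starts no more than 500 kb apart. There were 12, holding 84 members. On chromosome 1 (chr1:246945547-247331846) ZNF695, ZNF670, ZNF669, ZNF124 and ZNF496 all fell with POLR1A depleted (median -0.62) and with actinomycin D (median -1.68), and 2 of 5 fell with POLR2A depleted. ZNF670 was at 14.1, 15.7 and 14.1 CPM in controls, 9.60, 7.95 and 11.2 with POLR1A depleted, at most 15.8 with POLR2A depleted, where it overlapped the controls, and 2.16, 2.27 and 3.24 with actinomycin D. With mitochondrial scaling the ZNF670 difference with POLR1A depleted was -0.26 (edgeR adjusted p = 0.352), and the cluster counts were not repeated under that scaling.

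The 4 members of a cluster near the centromere of chromosome 10 (chr10:37776526-38150293) all fell with POLR2A depleted (median -1.10), while none passed the test with POLR1A depleted. ZNF248 was at 13.4–15.5 CPM in controls and 3.02–4.62 with POLR2A depleted, a log2 change of -1.87, and ZNF33A fell by 1.51, ZNF25 by 0.69 and ZNF37A by 0.15. ZNF25 and ZNF33A did not pass the test with actinomycin D. Over the whole of chromosome 10, 15 of 16 tested members fell with POLR2A depleted (median -1.30) and 8 of 16 with actinomycin D. Counts were made for every chromosome with tested members. Chromosome 10 is the only one given whole here and was not picked by a rule fixed beforehand. In the second chromosome 10 cluster ZNF239 and ZNF485 fell in all 3 comparisons.

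On chromosome 16 a cluster near the end of the short arm (chr16:3112560-3443553) gave 6 of 7 lower with actinomycin D, with a median of -2.50. ZNF263 was at 41.8, 48.0 and 46.5 CPM in controls and 5.71, 6.85 and 5.50 with actinomycin D (log2 fold change -2.91). ZNF597 fell by 2.74 and ZNF200 by 2.64. ZNF597 was instead higher with POLR2A depleted, at 24.4–29.2 CPM against 15.8–16.0. Antisense genes cover 33.1% of the exon bases of ZNF263. The larger cluster near the chromosome 16 centromere (chr16:30378106-31917357) had 14 tested members, of which 10 fell with actinomycin D (median -1.60). With POLR2A depleted it gave 6 lower and 4 higher, with ZNF843 at the top and ZNF689 (-1.23) at the bottom. Over all tested members 75.7% fell with actinomycin D, and with POLR2A depleted 58.1% fell and 20.3% rose.

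On chromosome 7 the cluster at chr7:149069643-149867479 had 8 of 10 lower and ZNF467 higher with actinomycin D (median -2.17). ZNF746, a parkin substrate, was at 50.3, 56.2 and 53.3 CPM in controls and 8.57, 10.6 and 10.2 with actinomycin D (-2.44). ZNF786 fell by 2.37, ZNF282, a repressor of HTLV-1 transcription, by 2.35 and ZNF777 by 2.34. With POLR2A depleted 7 of the 10 fell, while ZNF425 in their midst rose by 3.76. ZNF786 next to it fell by 0.79 in that comparison. In the other chromosome 7 cluster (chr7:64045443-65401135) 5 of 6 tested members fell with POLR1A depleted and 5 with actinomycin D, and ZNF117 rose in all 3 comparisons.

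In the remaining clusters, all 6 members at the end of chromosome 8 fell with actinomycin D (median -1.66), among them ZNF7 (-2.55) and ZNF16 (-2.19), while ZNF251 rose by 0.94 with POLR2A depleted. On chromosome 3 (chr3:44431720-44737083) 6 of 7 fell with actinomycin D and 1 with POLR1A depleted. On chromosome 12 all 3 tested of 7 members fell with actinomycin D, and ZNF268 and ZNF84 fell with POLR2A depleted while ZNF26 rose. With mitochondrial scaling ZNF268 turned to 0.31 with actinomycin D (edgeR adjusted p = 0.124), and ZNF26 was at 0.34 with POLR2A depleted (adjusted p = 0.172) and -0.47 with actinomycin D (adjusted p = 0.0606). On chromosome 5 ZNF354A and ZNF354B fell in all 3 comparisons, and these were the only tested members of 5. They hold 16.8% and 10.4% of 75-base stretches that recur in another gene, so reads could be divided between copies. With mitochondrial scaling ZNF354A turned to 0.02 with POLR1A depleted and 0.18 with actinomycin D, and ZNF354B was at -0.19 and -0.14, none of which passed the test. Without control replicate 3 the POLR1A difference of ZNF354A was -0.24 (edgeR adjusted p = 0.116). On chromosome 4 all 3 tested of 5 members fell with actinomycin D, ZNF721 by 1.49, ZNF141 by 1.29 and ZNF595 by 2.20. The ZNF141 fall did not pass the test without actinomycin D replicate 3 (edgeR adjusted p = 0.0657), without control replicate 2 (adjusted p = 0.0673), without the filter (adjusted p = 0.0594) or with mitochondrial scaling (-0.40, adjusted p = 0.538).

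**Figure D5:**
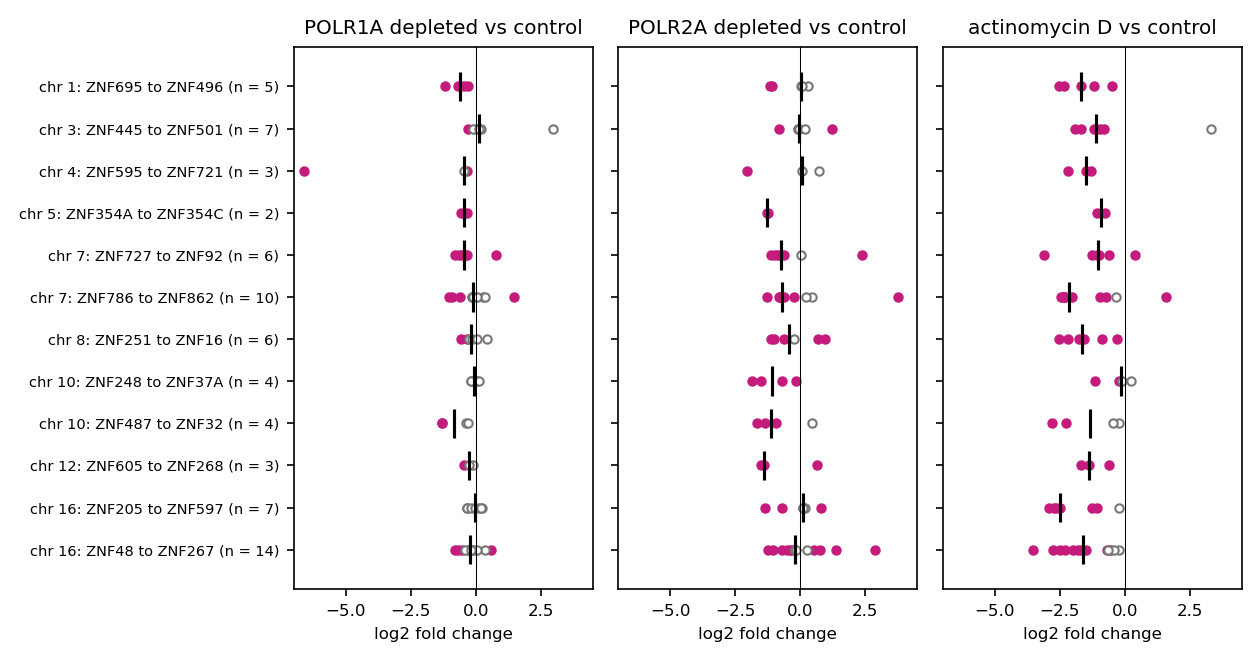
Log2 fold change against controls (horizontal axis, TMM scaling) of each tested member in the 12 genomic clusters (rows, named by first and last member). Filled points passed the test, open points did not, and bars are cluster medians. Medians lie below 0 for every cluster with actinomycin D, and single members such as ZNF425 and ZNF117 with POLR2A depleted stand apart from their neighbours. With mitochondrial scaling 56 members are called higher and 75 lower with actinomycin D.

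The co-repressor machinery that KRAB proteins use was followed as a list of 30 genes, all tested. With POLR1A depleted 10 rose and 6 fell, with POLR2A depleted 6 rose and 18 fell, and with actinomycin D 15 rose and 12 fell. Of all genes tested 20.6%, 33.2% and 24.9% rose and 18.6%, 28.2% and 28.5% fell. Many listed genes, TRIM28 and CBX5 among them, lie in the highest level class. Other protein-coding genes of that class rose in 38.5%, 24.8% and 61.1% and fell in 33.6%, 51.5% and 24.4%. The list was not tested against these shares. TRIM28 changed by -0.30, 0.27 and 0.61 on the log2 scale in these comparisons and passed the test in each. SETDB1 was at 58.0–64.9 CPM in controls, 20.0–20.7 with POLR2A depleted and 34.6–42.4 with actinomycin D, changes of -1.62 and -0.69, and did not pass the test with POLR1A depleted (-0.14, adjusted p = 0.151). Its partner ATF7IP fell by 1.40 with POLR2A depleted and rose by 0.27 with POLR1A depleted. CBX5, the HP1 alpha protein, rose in all 3 comparisons by 0.78, 0.70 and 0.77. SUV39H1, another histone H3 lysine 9 methyltransferase, fell by 2.13 with actinomycin D and by 0.60 with POLR2A depleted. The list median was -0.01, -0.29 and 0.14 in the 3 comparisons, where that of the ZNF members was -0.13, -0.52 and -1.03. With mitochondrial scaling these list changes shift with the medians of all genes given above.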

How the data were processed

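The deposited values were expected counts per gene, which need not be whole. RSEM 1.3.3, HTSeq 2.0.2 and STAR are among the tools in the submitters' processing notes, which tie none to this table. Strand setting and annotation release: not given in the sources used here. Groups and replicate numbers came from the sample titles. Counts were rounded and tested with edgeR 4.0.16 in R 4.3.3: filterByExpr, TMM, a robust quasi-likelihood fit over all 12 libraries with 8 residual degrees of freedom, and Benjamini-Hochberg adjustment over 23593 genes, called at adjusted p under 0.05. Each SE is the absolute log2 fold change divided by the square root of the quasi-likelihood F statistic, and not an error estimated by the fit itself. No test was run on the members as a list. Totals of 11289094 to 27393969 counts per library set the precision, and intervals cover counting error only. The test was also run on simulated counts in which few genes changed, in a single group. That setting cannot speak to the choice of scaling where many genes change.

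Coordinates and gene classes came from GENCODE 29, and promoters from RefSeq (GRCh38.p14). KRAB, SCAN and C2H2 motifs were searched in translated GENCODE 29 coding sequences, although RefSeq proteins had been planned. Per comparison with controls, the rule names the 8 highest and 8 lowest called members by log2 fold change, given no overlap with controls and a mean log2 CPM of at least 1, and 4 and 4 between treatments. It adds the 8 highest levels per kb, members at 3 counts or fewer in a group against 100 or more in controls, and up to 3 called members per cluster. Members, lists and rules were chosen with earlier results of these data known. Alternatives were other scalings, filters, libraries left out, a replicate block and DESeq2 1.42.0.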

Additional observations from a re-analysis of the deposited data

How the results depend on the processing

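Scaling to the 13 mitochondrial mRNAs changed the most. It reversed the member median with POLR1A depleted to 0.23 (73 higher, 14 lower) and that of actinomycin D against POLR2A depletion to 0.52 (114 higher, 48 lower). It gave -0.80 with 28 higher for POLR2A depletion against controls, -0.10 with 56 higher and 75 lower for actinomycin D against controls, 0.97 with 18 lower for POLR1A against POLR2A depletion, and -0.38 with 36 higher and 101 lower for actinomycin D against POLR1A depletion. Library totals alone gave medians of -0.40 (POLR2A against controls), -1.15 (actinomycin D against controls), 0.25 (POLR1A against POLR2A), -1.10 with 6 higher (actinomycin D against POLR1A) and -0.93 (actinomycin D against POLR2A). RLE size factors gave 0.26 for POLR1A against POLR2A. DESeq2, which tested other genes, gave -0.37, -0.91, 0.17 and -0.81 for the first 4 of those 5 comparisons. The medians of all genes under DESeq2 were 0.47, 0, -0.57 and 0 in the same order. With the main edgeR setting they were 0.08, -0.06, -0.08 and -0.12. With no filter the 3 actinomycin D medians were -0.87 (controls), -0.78 (POLR1A) and -0.55 (POLR2A). For POLR1A against POLR2A, requiring a CPM of 1 in 3 libraries gave 0.26, and a CPM of 0.5 in every control gave 0.25. The cause of these shifts was not tested.

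Leaving out 1 library at a time kept every median's direction: -0.14 to -0.08 (POLR1A against controls, 39–44 higher, 57–63 lower), -0.56 to -0.52 (POLR2A, 41–43, 125–130), -1.07 to -0.96 (actinomycin D, 10–13, 157–165), 0.31 to 0.38 (POLR1A against POLR2A, 112–120, 45–49), -0.99 to -0.89 (actinomycin D against POLR1A, 10–13, 154–159) and -0.71 to -0.63 (actinomycin D against POLR2A, 47–51, 130–136). Nothing in the labels ties equal replicate numbers together across groups. Deviations of 18 same-numbered pairs correlated at -0.061 to 0.039, against -0.064 to 0.052 for 36 differently numbered pairs. These values pool all tested genes, so they show no sign of a pairing but cannot exclude it. With the replicate block the 3 comparisons with controls gave 42 higher and 64 lower, 44 and 130, and 12 and 167, and the block changed no count by over 1.5 times. For the named members, cluster members included, 2193 recomputed values kept direction and call, 46 lost the call and 8 changed sign. These 8 sign changes came with mitochondrial scaling: ZNF37A (0.70, called higher), ZNF268 (0.31) and ZNF354A (0.18) with actinomycin D, and ZNF263 (0.0246), ZNF35 (0.0669), ZNF721 (0.0382), ZNF354A (0.0212) and ZNF16 (0.0105) with POLR1A depleted. Calls were lost by members named outside the clusters in 3 cases: ZNF385B with actinomycin D against controls (0.21, edgeR adjusted p = 0.121) and ZNF362 with actinomycin D against POLR1A depletion (0.41, adjusted p = 0.059) with library totals alone, and ZNF362 without POLR1A-depleted replicate 3 (0.44, adjusted p = 0.0536). Without 1 library, ZNF35, ZNF16, ZNF26, ZNF747 and ZNF354A lost calls with POLR1A depleted and ZNF37A and ZNF141 with actinomycin D. The replicate block took the call from ZNF35 with POLR1A depleted (-0.30, adjusted p = 0.0587). The 28 untested members had too few counts for a statement on them here.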
